A study of Mus musculus with 8 samples.

Results

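The genes for 9 mitochondrial enzymes and enzyme subunits of the tricarboxylic acid (TCA) cycle were followed in mouse CD8+ T cells: Cs, Idh3a, Idh3b, Idh3g, Ogdh, Suclg1, Suclg2, Fh1 and Mdh2. They were taken by symbol from the table of FPKM (fragments normalised by gene length and library size, so that levels of different genes can be set side by side), where all 9 were found among 22520 rows. The study asked how DADA (diisopropylamine dichloroacetate), known as an inhibitor of pyruvate dehydrogenase kinase, affects CD8+ T cells under persistent stimulation. Splenic CD8+ T cells of wild-type mice were purified by negative magnetic selection and stimulated with antibodies to CD3 and CD28 and with IL-2. Both groups shared this culture and were harvested on day 6, and from day 3 they received either 40 µM DADA or the same volume of the solvent DMSO. There were 4 libraries in each group, named here DMSO 1 to 4 and DADA 1 to 4. The genotype field of the labels separates the groups as control and model, while the protocols describe a difference in treatment alone. The study's methods list male C57BL/6J mice aged 6 to 8 weeks among its animals but do not tie an age to these cultures. The libraries are called biological replicates, but whether each came from a separate animal is not stated, so p-values measure the spread between these libraries.

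The TCA cycle in the mitochondrial matrix oxidises acetyl-CoA, made from pyruvate, fatty acids or amino acids, to carbon dioxide and passes the electrons to the respiratory chain as NADH and FADH2. Its intermediates also leave the cycle as precursors of aspartate, glutamate, haem and lipids, and have to be replaced. In T cells the cycle is known to be used more heavily after activation, when cells grow and divide.

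Transcript levels of 8 of the 9 genes fell with DADA, by 17.0% to 35.2% of the mean FPKM, and Idh3b alone did not pass the test. The largest decrease was in Suclg2, the GTP-forming subunit of succinyl-CoA ligase, and the next in Fh1, the fumarase gene. In limma's test, 8 members were called lower and 0 higher at an adjusted p under 0.05. The response to DADA was broad: the same test called 7064 of 10666 genes (66.2%), of which 3768 (35.3% of those tested) were lower and 3296 (30.9%) higher. Of the 6267 genes whose mean reached 10 FPKM, as that of all 9 members did, 42.7% were called lower and 29.2% higher. The median log2 fold change of the members was -0.33 and that of all genes tested was -0.02. For the same 8 genes the highest DADA library lay below the lowest DMSO library, which held for 32.2% of all genes tested, while the opposite held for 0 members and 28.4% of all genes. Among genes of at least 10 FPKM these shares were 39.4% and 27.1%. For each of these 8, an exact permutation of the library labels (two-sided, 70 assignments) gave p = 0.0286, the smallest possible. In bulk RNA, fewer cells of a kind and less RNA per cell cannot be told apart.

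The FPKM sums of the libraries were 450473 to 456939 in DMSO and 438299 to 449480 in DADA, so every DADA total was below every DMSO total. With libraries rescaled to the same total, the median log2 fold change of all genes tested was 0.01. Of the genes called, 48.4% were then lower, beside 53.3% without rescaling, and 8 members were again called lower. The first principal component, which held 80.1% of the variance, separated the groups. Of the CD8 T cell markers, 5 of 6 were in the table and their summed level was 674 to 680 FPKM in DMSO and 776 to 805 in DADA, and all 5 were called higher. Myeloid markers summed to 0 to 0.0883 FPKM in DMSO and 0.0529 to 0.188 in DADA, with Csf1r, Adgre1 and S100a8 at 0. Mean Cd14 (0.0459 FPKM in DMSO, 0.112 in DADA) and Itgam (0.00433, 0.0282) were higher in DADA, and Lyz2 (0.0142, 0) was lower. Erythroid markers summed to 0.092 to 0.302 FPKM in DMSO and 0 to 0.426 in DADA, with Hbb-bs at 0. B cell markers summed to 2.59 to 3.54 FPKM in DMSO and 2.36 to 3.09 in DADA, nearly all from Cd79b, with Pax5 at 0. Mean Cd79b was 3.08 FPKM in DMSO and 2.69 in DADA and was not called, while mean Cd79a was higher in DADA (0.0622, 0.148). Ms4a1 was at 0 except for 0.0288 FPKM in DADA 4. The CD4 T cell list summed to 16.3 to 17.4 FPKM in DMSO and 15.3 to 15.8 in DADA, nearly all from Zbtb7b. Its other markers were under 1 FPKM in every library. Mean Foxp3 was higher in DADA (0.0693 FPKM in DMSO, 0.214 in DADA), while Cd4 (0.283, 0.213) and Cd40lg (0.222, 0.0767) were lower. The NK list summed to 13.5 to 14.2 FPKM in DMSO and 10.4 to 11.7 in DADA, nearly all from Eomes, which CD8+ T cells also express. The other NK markers were under 1 FPKM in every library, with higher means in DADA: Klrb1c at 0.018 FPKM in DMSO and 0.185 in DADA, Tyrobp at 0.0678 and 0.357, and Ncr1 at 0.024 and 0.034. The part of these shifts in the results below was not tested.

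The subunits Idh3b and Idh3g of the same enzyme differed in their response, and the sequence just upstream of their start sites is shown first. Idh3a, which fell like Idh3g, had no promoter window and is not shown. Each stretch runs from 120 bases before the start to 10 bases after it on the minus strand of GRCm38.p6, from RefSeq's promoter table, at chr2:130284442-130284571 for Idh3b and chrX:73786888-73787017 for Idh3g. Capitals mark only the letters CCGGAAG, a sequence recognised by ETS factors, or their reverse complement, and other ETS-type sites were not searched for.
Idh3b: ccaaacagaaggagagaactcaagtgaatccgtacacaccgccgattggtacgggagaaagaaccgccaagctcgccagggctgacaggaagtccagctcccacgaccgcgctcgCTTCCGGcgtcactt
Idh3g: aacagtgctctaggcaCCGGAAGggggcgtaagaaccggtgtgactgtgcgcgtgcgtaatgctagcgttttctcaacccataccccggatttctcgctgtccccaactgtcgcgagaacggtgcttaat
The letters CCGGAAG were found on either strand in 8.86% of all 32851 promoter windows of 300 bases, and among the 8 members with a window in Idh3b and Idh3g. The marked positions differed, close to the start in Idh3b and near the upstream end of the printed stretch in Idh3g. Whether they bear on the response was not tested. The E-box letters CACGTG were in 7.15% of windows and, among the members, in Ogdh, which has several start windows. The letters TCAAGGTCA, recognised by oestrogen-related receptors, were in 0.423% of windows and in that of no member. The NRF1 motif, named for a regulator of mitochondrial genes, was in 4.6% of windows and likewise in none of a member.

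The levels follow in the order of the reactions. Cs (ENSMUSG00000005683) encodes citrate synthase, which joins acetyl-CoA to oxaloacetate at the entry of the cycle. Its level was 140.0, 136, 139 and 134 FPKM in DMSO 1 to 4 and 111, 112, 112 and 110.0 FPKM in DADA 1 to 4. The 4 DADA libraries lay within a few FPKM of each other and well below the lowest DMSO library. From a DMSO mean of 137 ± 2.53 FPKM (SD, n = 4 each), Cs fell to 111 ± 1.13 FPKM with DADA, and limma put the log2 fold change, on the log2(FPKM + 1) scale, at -0.30 (SE 0.0208, adjusted p = 7.36e-07). Of the 50-base windows of its longest transcript, 4.0% also occur in Csl, a citrate synthase-like copy that was listed at 0.0377 FPKM or less in every library.

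Idh3a, Idh3b and Idh3g encode the alpha, beta and gamma subunits of the NAD-dependent isocitrate dehydrogenase, which makes 2-oxoglutarate and NADH. The alpha subunit is catalytic, and the beta and gamma subunits pair with it and regulate it. Idh3a (ENSMUSG00000032279) was at 60.8, 58.6, 57.0 and 58.7 FPKM in DMSO 1 to 4 and at 46.3, 44.1, 46.0 and 45.8 FPKM in DADA 1 to 4. DADA 2 was the lowest, and the groups were separate. The mean fell from 58.8 ± 1.53 to 45.6 ± 0.978 FPKM, and limma put the log2 fold change at -0.36 (SE 0.0269, adjusted p = 1.27e-06).

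Idh3g (ENSMUSG00000002010) was at 88.9, 86.0, 91.3 and 90.1 FPKM in DMSO 1 to 4 and at 69.4, 73.9, 70 and 70.2 FPKM in DADA 1 to 4. The highest DADA library, DADA 2, was still below the lowest DMSO library. Mean Idh3g fell from 89.1 ± 2.27 to 70.9 ± 2.04 FPKM, which limma gave as -0.33 on the log2 scale (SE 0.028, adjusted p = 3.53e-06). Idh3b (ENSMUSG00000027406) was at 72.9, 73.2, 73.1 and 75.8 FPKM in DMSO 1 to 4 and at 76.9, 75.6, 71.9 and 77.2 FPKM in DADA 1 to 4. The groups overlapped: DADA 3 was the lowest of all 8 libraries, while DADA 1 and DADA 4 were the highest. The means were 73.7 ± 1.37 and 75.4 ± 2.43 FPKM. The log2 fold change was 0.03 with a 95% interval of -0.03 to 0.09 and limma adjusted p = 0.35, and the exact permutation p was 0.3143. With quantile normalization of the libraries it was 0.07 and passed the threshold, with limma adjusted p = 0.0408.

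**Figure D1:**
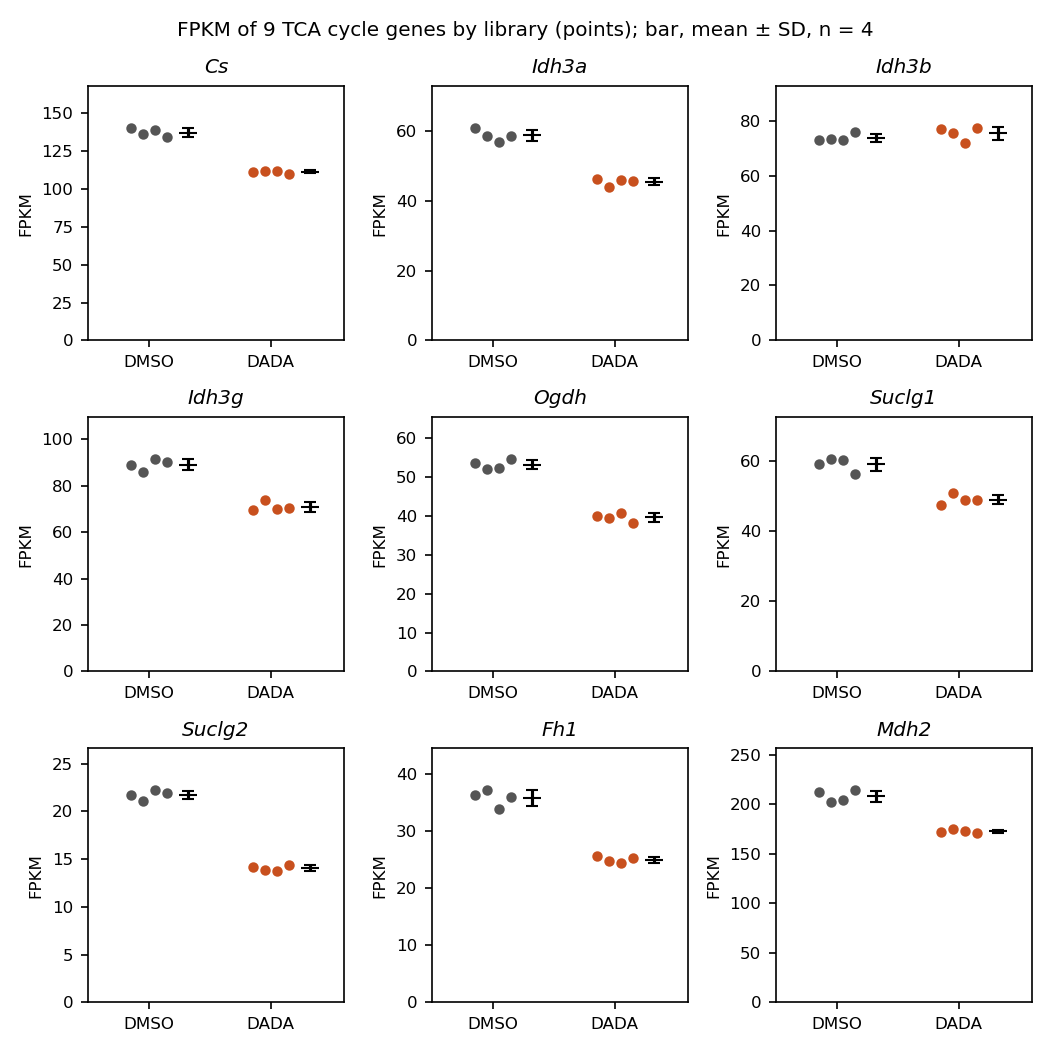
FPKM of the 9 genes in each library, DMSO beside DADA, with a point for each of the 4 libraries of a group and bars for the mean and SD; the axes start at 0. The DADA libraries lie below all DMSO libraries for 8 genes, and the groups overlap for Idh3b, at 72.9 to 75.8 FPKM in DMSO and 71.9 to 77.2 in DADA.

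The next steps turn 2-oxoglutarate into succinate. Ogdh (ENSMUSG00000020456) encodes the first component of the 2-oxoglutarate dehydrogenase complex. It was at 53.6, 52.1, 52.4 and 54.6 FPKM in DMSO 1 to 4 and at 40.1, 39.5, 40.8 and 38.2 FPKM in DADA 1 to 4. Every DADA library lay more than 10 FPKM below the lowest DMSO library. Its mean fell from 53.2 ± 1.15 to 39.6 ± 1.11 FPKM, and limma gave a log2 fold change of -0.42 (SE 0.0278, adjusted p = 5.58e-07).

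Suclg1 (ENSMUSG00000052738) encodes the alpha subunit of succinyl-CoA ligase, common to the GTP-forming and ATP-forming enzymes. It was at 59.1, 60.4, 60.2 and 56.2 FPKM in DMSO 1 to 4 and at 47.5, 50.7, 48.7 and 48.7 FPKM in DADA 1 to 4. The nearest libraries of the groups, DMSO 4 and DADA 2, were still apart. The mean level dropped from 59.0 ± 1.96 to 48.9 ± 1.33 FPKM, for a log2 fold change in limma of -0.26 (SE 0.0307, adjusted p = 3.2e-05). Suclg2 (ENSMUSG00000061838) encodes the GTP-forming beta subunit. It was at 21.7, 21.1, 22.2 and 21.9 FPKM in DMSO 1 to 4 and at 14.2, 13.9, 13.8 and 14.4 FPKM in DADA 1 to 4. The spread within each group was small beside the gap between them. On average Suclg2 fell from 21.7 ± 0.475 to 14.1 ± 0.282 FPKM, the largest relative change among the members, with limma's log2 fold change at -0.59 (SE 0.0296, adjusted p = 6.79e-08). Its level carries an uncertainty, since 21.8% of the 50-base windows of its longest transcript also occur in Gm15163, a gene that was not among the rows used here.

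Fh1 (ENSMUSG00000026526) encodes fumarase, which hydrates fumarate to malate. It was at 36.3, 37.1, 33.9 and 35.9 FPKM in DMSO 1 to 4 and at 25.6, 24.8, 24.4 and 25.2 FPKM in DADA 1 to 4. DMSO 3 was the lowest of its group and still above all DADA libraries. Fumarase transcript fell on average from 35.8 ± 1.38 to 25 ± 0.534 FPKM, and limma gave a log2 fold change of -0.50 (SE 0.0326, adjusted p = 4.64e-07). Mdh2 (ENSMUSG00000019179) encodes the mitochondrial malate dehydrogenase, which closes the cycle by making oxaloacetate. It was at 212, 202, 204 and 214 FPKM in DMSO 1 to 4 and at 172, 175, 173 and 171 FPKM in DADA 1 to 4. All DADA libraries were below the lowest DMSO library, DMSO 2. Its average went from 208 ± 5.92 down to 173 ± 2.01 FPKM, and limma put the log2 fold change at -0.27 (SE 0.024, adjusted p = 4.92e-06).

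The replicates of these genes were tight. The coefficient of variation between replicates ranged from 1.84% for Cs to 3.85% for Fh1 in DMSO, with a median of 2.55% over the members against 3.6% over all genes whose mean reached 10 FPKM. In DADA it ranged from 1.01% for Cs to 3.23% for Idh3b, with a median of 2.15% against 3.52%. The comparison genes were not matched for level to the members, which stood at the 65.7th percentile of DMSO level or higher. From an estimate of depth, about 709 to 1160 fragments per library stood behind Suclg2, the member with the lowest level, for a counting error of 3.76% at the lowest. The coefficient of variation of Suclg2 was smaller than this, at 2.19% in DMSO and 2.01% in DADA, so these fragment numbers are rough.

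On the FPKM scale, which is per length, Mdh2 and Cs were the most abundant members and Suclg2 the least in both groups. In DMSO the order of mean levels was Mdh2, Cs, Idh3g, Idh3b, Suclg1, Idh3a, Ogdh, Fh1 and Suclg2. Only the neighbours Suclg1 and Idh3a had overlapping ranges there, with Suclg1 the higher in 2 of 4 libraries. In DADA the order was the same except that Idh3b, at 75.4 FPKM, stood above Idh3g, at 70.9 FPKM. The ranges of these neighbours overlapped across libraries, but within each of the 4 DADA libraries Idh3b was the higher. The summed level of all 9 was 746, 727, 733 and 741 FPKM in DMSO 1 to 4 and 603, 609.9, 601 and 600.3 FPKM in DADA 1 to 4, a decrease of the mean by 18.1%. Idh3b made up 10.0 ± 0.19% of that sum in DMSO and 12.5 ± 0.405% in DADA, with ranges of 9.77% to 10.2% and 12.0% to 12.9%. The share of Suclg2 was 2.95 ± 0.0575% in DMSO and 2.33 ± 0.0551% in DADA.

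Ratios of gene pairs within a library do not depend on how the library was scaled, and 9 pairs were compared by two-sided exact permutation tests with Benjamini-Hochberg adjustment over the 9. Of these, 7 differed between the groups, each at an exact permutation p of 0.0286 (0.0367 adjusted), although several share a gene and are not independent. The share of other gene pairs that reach this p was not computed, so the count is no result about these pairs. Among single genes tested, 32.2% were lower and 28.4% higher in all DADA libraries than in all DMSO libraries. Within isocitrate dehydrogenase, Idh3a relative to Idh3b was 0.834, 0.801, 0.78 and 0.774 in DMSO 1 to 4 and 0.602, 0.584, 0.64 and 0.594 in DADA 1 to 4. The ratio was lower in all DADA libraries, by 0.40 ± 0.0376 (SE) on the log2 scale. Idh3g relative to Idh3b was 1.22, 1.18, 1.25 and 1.19 in DMSO 1 to 4 and 0.902, 0.978, 0.973 and 0.91 in DADA 1 to 4. It was above 1 in each DMSO library and below 1 in each DADA library, a log2 difference of -0.36 with SE 0.0366. Idh3a relative to Idh3g was 0.66 ± 0.028 in DMSO and 0.644 ± 0.0315 in DADA, with overlapping groups, an exact permutation p of 0.5143 and differences between single libraries of -0.19 to 0.10 on the log2 scale.

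The beta subunits of succinyl-CoA ligase also shifted against each other. Suclg2 relative to Sucla2, which encodes the ATP-forming beta subunit, was 0.67, 0.621, 0.653 and 0.651 in DMSO 1 to 4 and 0.524, 0.513, 0.514 and 0.537 in DADA 1 to 4. All DADA ratios were lower, a log2 difference of -0.31 with SE 0.0277. Suclg1 relative to Suclg2 was 2.72 ± 0.124 in DMSO and 3.48 ± 0.136 in DADA, a log2 difference of 0.36 with SE 0.0434. Every DADA library was above every DMSO library in this ratio.

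Ogdh relative to Dlst, the gene of another component of the same complex, fell from 0.925 ± 0.0324 to 0.819 ± 0.0318, by 0.18 on the log2 scale. Smaller differences were found for Mdh2 relative to its cytosolic counterpart Mdh1 (-0.10 on the log2 scale, SE 0.0256) and for Fh1 relative to Sdha (-0.12, SE 0.0324). With a pseudocount of 1 the last was -0.11 and no longer passed, with an adjusted p of 0.0643 from the exact permutation test. Idh3a relative to Idh2, the gene of the NADP-dependent mitochondrial enzyme, was 2.3 ± 0.0928 in DMSO and 2.61 ± 0.277 in DADA. The groups overlapped, the exact permutation p was 0.0571 (0.0643 adjusted), and differences between single libraries were -0.02 to 0.45 on the log2 scale.

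**Figure D2:**
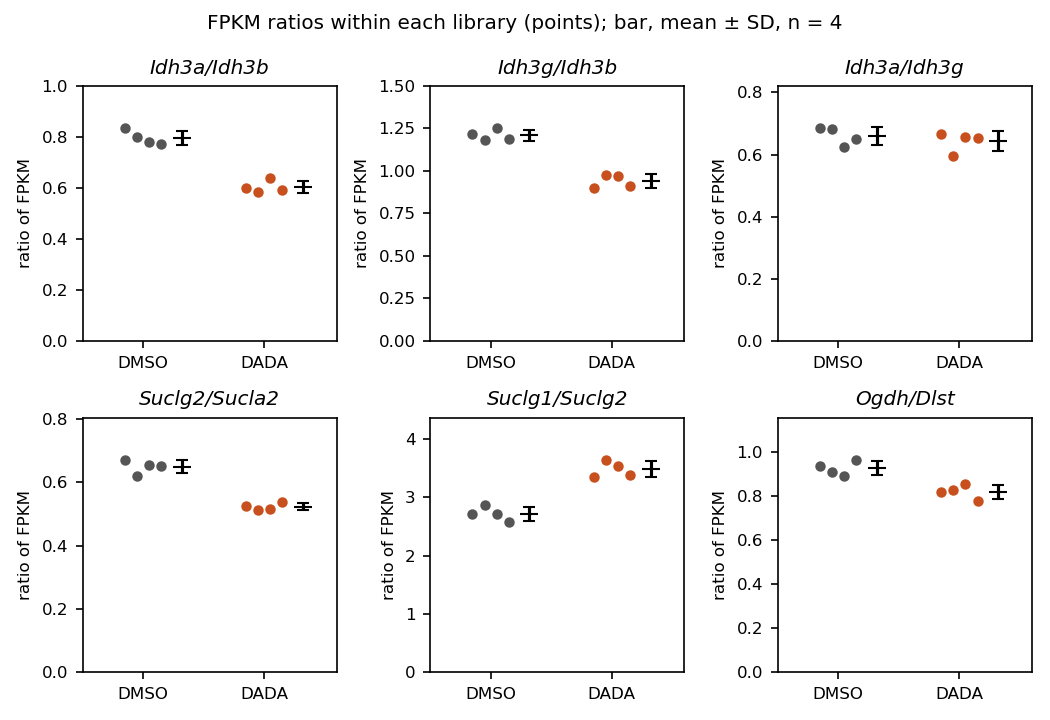
FPKM ratios within each library for 6 of the 9 pairs, with a point for each of the 4 libraries of a group and bars for the mean and SD; the axes start at 0. The DADA points lie apart from the DMSO points in 5 pairs, while those of Idh3a/Idh3g overlap, at means of 0.66 and 0.644.

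Of 8 further genes of the cycle, 7 were called lower, 0 higher, and Sdhd did not pass. Over all genes tested, 35.3% were called lower and 30.9% higher. Idh2 fell from 25.6 ± 1.15 to 17.6 ± 1.64 FPKM, and limma put its log2 fold change at -0.52 (adjusted p = 4.11e-05).

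For the partners of Ogdh, Dlst, the succinyltransferase component, fell from 57.5 to 48.4 FPKM (log2 fold change -0.24, limma adjusted p = 6.7e-06). Dld, the dihydrolipoamide dehydrogenase of several complexes, fell from 81.8 to 61.6 FPKM (-0.40, limma adjusted p = 1.71e-07). Sucla2 fell from 33.5 ± 0.752 to 27.0 ± 0.199 FPKM (-0.30, limma adjusted p = 2.81e-06). The subunits of succinate dehydrogenase, which oxidises succinate to fumarate, did not move alike. Sdha, the flavoprotein, fell from 96.0 to 73.0 FPKM (-0.39, limma adjusted p = 1.86e-07), and Sdhb, the iron-sulphur subunit, from 124 to 83.6 FPKM (-0.56, limma adjusted p = 1.07e-07). The genes of the membrane anchors overlapped between groups. Sdhc was at 25.4 ± 1.38 FPKM in DMSO and 23.5 ± 0.887 in DADA, a log2 fold change of -0.11 that limma called at an adjusted p of 0.0476 while the exact permutation p was 0.0857. That call was lost under 11 of the alternatives. Sdhd was at 67.6 ± 3.82 FPKM in DMSO and 73.2 ± 3.7 in DADA (log2 fold change 0.11, limma adjusted p = 0.0518), with exact permutation p = 0.1143. Over these 17 genes, members included, 15 were called lower, 2 were not called, and the median log2 fold change was -0.33. The 15 include Sdhc, whose call was not stable. Of all genes tested 35.3% were called lower, and of those whose mean reached 10 FPKM 42.7%.

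**Figure D3:**
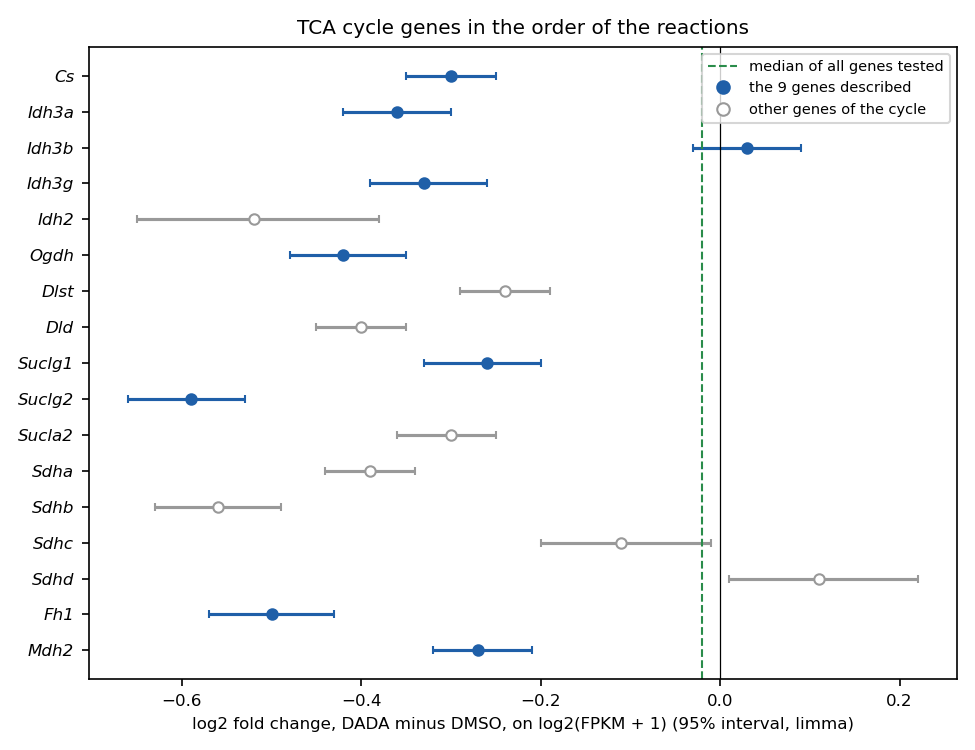
Log2 fold change on the log2(FPKM + 1) scale, DADA minus DMSO, with 95% intervals from limma, for 17 cycle genes in reaction order; the dashed line is the median of all genes tested, -0.02. Idh3b at 0.03 and Sdhd at 0.11 are the only points above 0, and Suclg2 at -0.59 is the lowest.

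Genes whose values ran closest to those of Suclg2, the member with the largest change, were found by the root mean square difference of centred log2(FPKM + 1) over the 8 libraries. They were Wars1, the cytosolic tryptophanyl-tRNA synthetase (difference 0.0199, 95 FPKM in DMSO and 63.2 in DADA), Snx10, a sorting nexin (0.0212, 27.5 and 17.9 FPKM), and Odc1, the ornithine decarboxylase of polyamine synthesis (0.0234, 419 and 279 FPKM). Their log2 fold changes were -0.58, -0.59 and -0.58, beside -0.59 for Suclg2. A like change with DADA alone makes this difference small, so it does not show that the genes vary together within a group. The nearest other member was Fh1, at 0.0695, and how many other genes lay nearer was not computed.

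The counts for the lists around the cycle are to be read against all genes tested, of which 35.3% were called lower and 30.9% higher. The genes of the pyruvate dehydrogenase complex, which supplies acetyl-CoA to Cs, did not share a direction: 3 of 4 were called lower and 1 higher. Pdha1, the alpha subunit that pyruvate dehydrogenase kinases phosphorylate, was at 55.0, 57.9, 58.8 and 58.4 FPKM in DMSO 1 to 4 and at 75.2, 76.4, 76.5 and 75.3 FPKM in DADA 1 to 4. It was higher in every DADA library (log2 fold change 0.39, limma adjusted p = 4.5e-07). Pdhx, the component that binds dihydrolipoamide dehydrogenase, fell from 11.4 to 7.64 FPKM (-0.52, limma adjusted p = 5.37e-06), and Dlat, the acetyltransferase component, from 25.5 to 19.9 FPKM (-0.34, limma adjusted p = 1.19e-05).

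Genes for lipoylation, the cofactor attachment that Dlst and Dlat need, and for assembly of succinate dehydrogenase were called lower in 7 of 8 cases and higher in 0, with a median log2 fold change of -0.32. On the log2(FPKM + 1) scale, which understates the change of low genes, the largest decreases were in Gcsh, the lipoyl-carrying H protein of glycine cleavage (25.5 to 14.3 FPKM, -0.79, limma adjusted p = 1.98e-07), and Sdhaf1, a succinate dehydrogenase assembly factor (9.21 to 6.5 FPKM, -0.45, limma adjusted p = 5.26e-05). Of 11 tested mitochondrial carriers, 5 were called lower, 1 higher and 5 not, beside 35.3% lower and 30.9% higher of all genes tested. Among genes whose mean reached 10 FPKM, which Slc25a10 and Slc25a13 did not, 42.7% were called lower and 29.2% higher. The count called lower is no result about the carriers. Mpc2, a subunit of the mitochondrial pyruvate carrier, was at 29.9, 26.1, 28.7 and 27.0 FPKM in DMSO 1 to 4 and at 16.4, 16.9, 13.7 and 16.5 FPKM in DADA 1 to 4. The groups were separate, and limma put the log2 fold change at -0.78 (adjusted p = 3.56e-06). Slc25a10, the dicarboxylate carrier, fell from 6.58 to 3.82 FPKM (-0.65, limma adjusted p = 1.93e-06). Slc25a4, an ADP/ATP carrier, rose from 91.8 to 103 FPKM (0.17, limma adjusted p = 0.00013). Slc25a5, a more abundant ADP/ATP carrier, fell from 596 to 507 FPKM (-0.23, limma adjusted p = 4.8e-06).

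Of 15 tested genes that fill the cycle or drain it, 6 were called lower, 6 higher and 3 not, with a median log2 fold change of 0.04, shares not far from those over all genes. Pcca and Pccb, the subunits of propionyl-CoA carboxylase, which feeds succinyl-CoA, fell from 18.4 to 12.9 FPKM (-0.48, limma adjusted p = 2.87e-06) and from 7.53 to 5.42 FPKM (-0.41, limma adjusted p = 0.000444). Pcx, the pyruvate carboxylase that makes oxaloacetate, was at 2.55, 2.56, 2.44 and 2.49 FPKM in DMSO 1 to 4 and at 6.29, 5.85, 5.84 and 5.58 FPKM in DADA 1 to 4. It rose in all DADA libraries (log2 fold change 0.97, limma adjusted p = 5.19e-08). Acod1, which makes itaconate, which then leaves the cycle, was at 0 to 0.0569 FPKM in DMSO and at 1.45 to 1.78 FPKM in DADA. It passed the filter on low values through the DADA libraries alone.

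**Figure D4:**
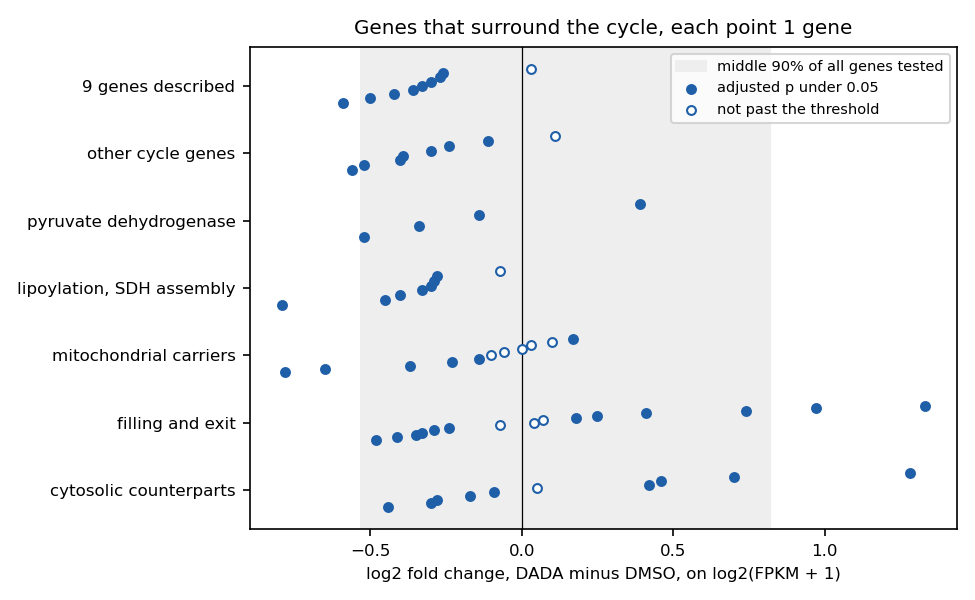
Log2 fold change on the log2(FPKM + 1) scale, DADA minus DMSO, for each tested gene of 7 lists, with filled points for an adjusted p under 0.05 and open points for the rest; the grey band is the middle 90% of all genes tested, -0.53 to 0.82. The 9 members, apart from Idh3b, lie on the left, while the genes that fill or drain the cycle and the cytosolic counterparts lie on both sides.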

How the data were processed

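Bulk RNA-seq was done on 8 libraries of cultured mouse CD8+ T cells, with groups taken from the sample titles. The authors deposited a single FPKM table with a column for each library, matched to the samples by title. The submitters' processing notes name CASAVA 1.8.2, FastQC 0.11.9, HISAT2 2.0.5, StringTie 1.3.3, Picard 1.41 and SAMtools 0.1.18 and the builds GRCm39 and GRCh38, with no role or order. No gene coordinates were therefore taken from the GRCm38 reference except the RefSeq promoter windows. The labels and the study's methods name different library kits.

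FPKM values hold no read counts, so tests were run on log2(FPKM + 1) with limma 3.58.1 (R 4.3.3, eBayes with trend), over genes with at least 1 FPKM in at least 4 libraries, with Benjamini-Hochberg adjustment over all of them and a threshold of 0.05. A fold change on this scale understates that of low genes. Depth was estimated from the steps of low FPKM values in genes with a single transcript, at 13.6 to 16.3 M fragments in DMSO and 15.3 to 19.1 M in DADA. Only 30.4% to 44.4% of such values lay within 0.1 of a whole fragment, so no counts were recovered and the estimate is rough. The search for the depth spanned less than a doubling, since multiples of the depth also give whole numbers. Only the limma fit and the depth estimate were tried on simulated data. There far fewer genes changed than were called here, and fragment counts were whole.

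The members and lists were chosen with earlier results of these data known. The genes named are the 9 members, further cycle genes, the called genes with the 2 largest changes in each direction in each surrounding list, copies of members, and the 3 genes nearest to the member with the largest change. Slc25a5 is named in addition, beside Slc25a4. Some planned items are not reported here, and the ratio tests were adjusted over the remaining 9 pairs. The alternatives were another pseudocount, other filters, other scalings, no trend, the replicate block and leaving out each library.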

Additional observations from a re-analysis of the deposited data

Results flagged for a closer look

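In 1 of 52 groups of 4 libraries examined (34 of levels, 18 of ratios), a single library lay far from the other 3 by Dixon's test, which chance does in about 1 in 20 groups. Idh3b in DMSO 4 was at 75.8 FPKM while the others were at 72.9 to 73.2, a gap of 0.888 of the range. Without DMSO 4 the log2 fold change of Idh3b was 0.04 with limma adjusted p = 0.218.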

How the results depend on the processing

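Of 281 tested values recomputed under the alternatives, 261 kept their direction and their side of the threshold. Of 123 counts and ratios without a test, 122 stayed within 1.5 times the main count or 1 SD of the main ratio, and 0 of all these values reversed. The count of members called lower was 8 under every alternative run, and the number of genes called ranged from 5741 (mean of at least 5 FPKM) to 7868 (no filter). With quantile normalization 1 member, Idh3b, was called higher. Sdhc lost its call under 11 alternatives, 5 of them single libraries left out (DMSO 1 or 3, DADA 1, 3 or 4), where its log2 fold change was -0.11 to -0.08. Sdhd gained a call under 7, among them rescaling to equal totals (0.15, limma adjusted p = 0.0186) and leaving out DMSO 3, DMSO 4 or DADA 3 (0.14). The ratio of Fh1 to Sdha lost its call with a pseudocount of 1 (-0.11, exact permutation p = 0.0643 adjusted). The cause was not tested. Deviations of libraries with the same number correlated at -0.12 to 0.0953. With so few libraries this cannot tell whether a number marks a shared animal or day, which is not stated. With the replicate block 6995 genes were called, the same 8 members among them. Depth is known only as an estimate, and 4 libraries a group cannot give an exact permutation p under 0.0286.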

Other observations

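Of 10 tested cytosolic enzymes that mirror or use cycle reactions, 5 were called lower and 4 higher, beside 35.3% and 30.9% of all genes tested. Got1, the cytosolic aspartate aminotransferase, fell from 74.1 to 54.3 FPKM (log2 fold change -0.44, limma adjusted p = 1.67e-07), and Ass1, the argininosuccinate synthase, which uses aspartate, from 50.6 to 40.9 FPKM (-0.30, limma adjusted p = 0.00225). Acss2, which makes acetyl-CoA from acetate, was at 5.2, 5.24, 5.17 and 5.37 FPKM in DMSO 1 to 4 and at 9.22, 9.41, 9.41 and 8.47 FPKM in DADA 1 to 4. It was higher in all DADA libraries (0.70, limma adjusted p = 2.96e-07). Me1, the cytosolic malic enzyme, was at 0.103 to 0.166 FPKM in DMSO and 1.59 to 1.86 FPKM in DADA, and passed the filter on low values through the DADA libraries alone.

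Related copies of the members stayed under the filter and were not tested. Csl was at 0.0141 to 0.0377 FPKM and Ogdhl, an Ogdh-like gene, at 0.0725 to 0.173 FPKM over all 8 libraries. Dhtkd1, a related dehydrogenase of lysine breakdown, reached at most 0.0643 FPKM and Mdh1b at most 0.0434 FPKM.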
